A study of Mus musculus with 9 samples.

Results

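The Slc25 family comprises the mitochondrial carriers, and its genes were taken as every row of the count table whose NCBI Gene number maps to a mouse symbol made of Slc25a and a number. This gave 47 genes out of 27179 rows. Of these, 39 had enough reads to be tested, among 13129 genes tested in all. The measurement was RNA immunoprecipitation sequencing (RIP-seq), in which RNA that precipitates with a protein is sequenced and set against the RNA of control precipitates and of the starting lysate. The protein was phosphorylated UPF1 (p-UPF1), and the question was which RNAs of activated B cells associate with it.

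All 9 libraries came from wild-type mouse splenic B cells, isolated as CD43-negative cells and activated in culture for 72 h. The labels give the stimuli as CD40L at 5 ug/mL, anti-IgM antibody at 10 ug/mL and IL-4 at 20 ng/mL, whereas the study's methods name an anti-CD40 antibody in place of CD40L. The groups were input (lysate RNA, 3 libraries), IgG (RNA precipitated with normal rabbit IgG, 3 libraries) and p-UPF1 (RNA brought down by an anti-p-UPF1 antibody, 3 libraries). The libraries of each group are called A, B and C after the column names. The study calls its replicates biological in general terms, but the sources used here do not say whether these libraries came from separate cultures or mice, so P values measure the spread between libraries, part of which may be technical. The labels give neither age nor sex of the mice, whereas the methods give an age range and both sexes for the mice of the study as a whole, and no UPF1-deficient cells were part of the RIP-seq samples.

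Slc25 proteins span the inner mitochondrial membrane, with a few members elsewhere, and exchange nucleotides, phosphate, carboxylates, amino acids, cofactors and iron between cytosol and matrix. Nuclear genes encode all of them, and the proteins are made in the cytosol and inserted through the translocases of the outer and inner membranes. UPF1 is an RNA helicase of nonsense-mediated mRNA decay (NMD), the pathway that degrades mRNAs on which translation ends in an unfavourable context, such as a stop codon far upstream of the last exon junction or before a long 3′ UTR. Phosphorylation of UPF1 marks mRNAs on which this decay is being engaged.

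Because p-UPF1 acts where translation terminates, stop codons of members at both ends of the enrichment range are shown first, each with 12 coding bases before it and 6 bases of the 3′ UTR after it. The stop codon is in capitals. Slc25a29 met the criterion for p-UPF1 binding, Slc25a44 and Slc25a38 lay just under it, and Slc25a3, Slc25a4 and Slc25a5 were the most depleted. The windows lie in the last exon of each coding transcript of GENCODE M21, on mouse GRCm38, the assembly that mm10 names. They are at chr12:108826724-108826744 on the minus strand (Slc25a29), chr3:88412700-88412720, minus (Slc25a44), chr9:120123750-120123770, plus (Slc25a38), chr10:91116958-91116978, minus (Slc25a3), chr8:46207457-46207477, minus (Slc25a4) and chrX:36798530-36798550, plus (Slc25a5).
Slc25a29: ccttccagtctgTGAtgcttg
Slc25a44: tcgagacactggTAGagagcg
Slc25a38: ggcctgaagtccTGAcgagag
Slc25a3: gggttaactgagTAGatacat
Slc25a4: aaaaaatatgtgTAAtaccca
Slc25a5: aagaaatacacaTAAttatgt

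Input libraries held 19873687 to 24945286 counts, IgG libraries 17372510 to 18550508 and p-UPF1 libraries 23251890 to 24802119, and counting error alone understates the true error because reads carried no molecular identifiers. Levels are given as CPM, the share of a library's reads on a common scale. The B cell label held: all 6 B cell markers examined were detected, from 58.0 CPM for Pax5 to 1229 CPM for Cd79b in input, and none of the 4 T cell markers had enough reads to be tested. The defining myeloid genes Lyz2, Csf1r and Itgam were at or below 0.31 CPM in every group, while Cd68 stood at 14.4 CPM in input. The 3 plasma cell markers were low, from 3.32 CPM for Jchain to 16.4 CPM for Prdm1 in input. The values are scaled by TMM factors, which centre each library on its typical gene, so that higher and lower mean relative to the typical RNA of the library. They describe shares of a library, not the fraction of each mRNA bound. Within a group of these bulk libraries, a small share from few cells cannot be told apart from little RNA per cell.

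As a family the carriers did not move together. Over IgG, 20 of the 39 tested members were higher in p-UPF1 libraries at an adjusted P under 0.05 and 15 were lower, with 4 not called. Among all genes tested 40.4% were higher and 42.2% lower, so most genes of any kind were called in this comparison. The median log2 fold change was 0.54 for the carriers and −0.03 for all genes, and the standard deviation (SD) over genes was 1.32 and 1.34. With a size limit of 1 on the log2 scale added, 11 members were higher, against 22.2% of all genes, and 7 were lower, against 21.9%. Against input, 19 members were higher (all genes 40.8%) and 14 lower (all genes 42.6%), with a median of 0.23. The IgG and input comparisons share the p-UPF1 libraries and are therefore given side by side only.

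**Figure D1:**
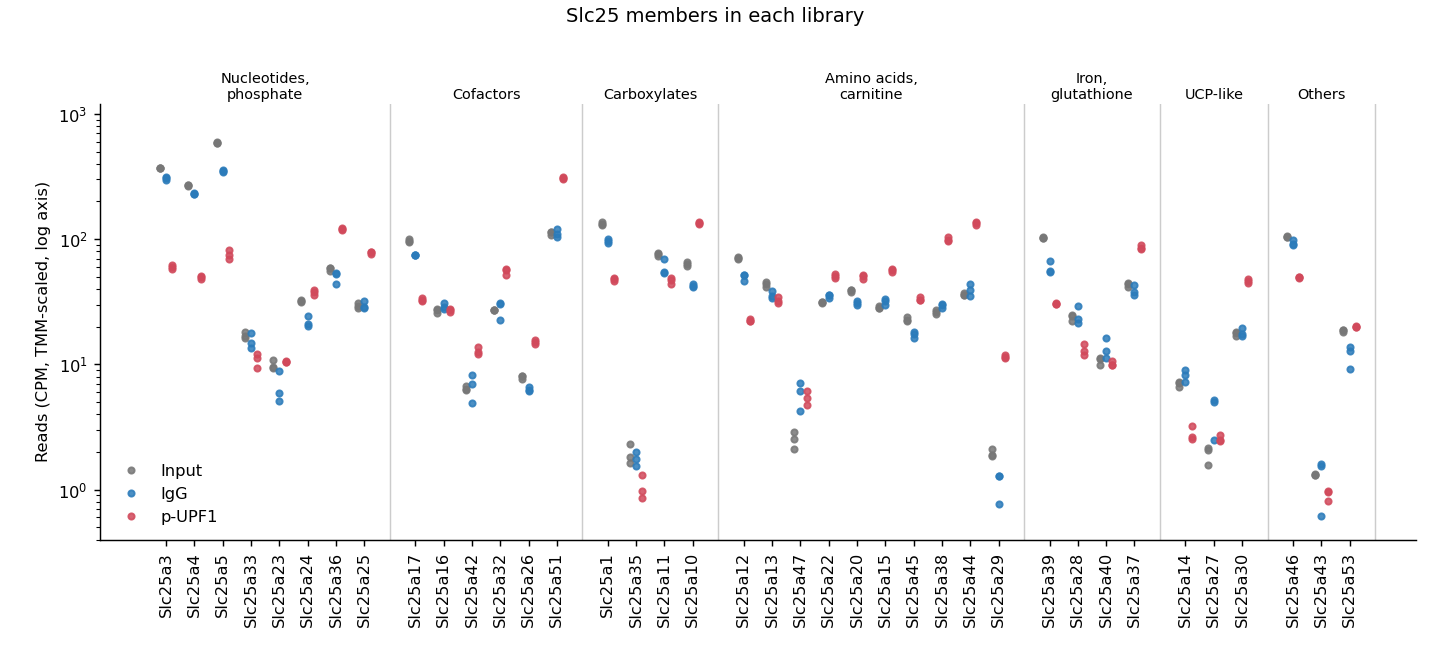
CPM of 38 of the 39 tested Slc25 members in each of the 9 libraries on a log axis, grouped by what they carry and ordered within each group by log2 fold change of p-UPF1 over IgG; each point is 1 library (grey, input; blue, IgG; red, p-UPF1). Mean levels of Slc25a5 were 590 CPM in input and 75.9 CPM in p-UPF1 libraries, and those of Slc25a51 lay higher in p-UPF1 libraries than in input.

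The make-up of the family's reads differed between the precipitates. In input, the phosphate carrier Slc25a3 and the ADP/ATP carriers Slc25a4 and Slc25a5 together held 45.1% ± 0.271 of all Slc25 reads (SD, n = 3), and in IgG 40.7% ± 0.326. In p-UPF1 libraries the same genes held 6.97% ± 0.121. Slc25a51, the NAD carrier, took 4.11% ± 0.0836 of input Slc25 reads and 5.13% ± 0.390 of those of IgG, but 11.6% ± 0.295 of those precipitated with p-UPF1. No library of the p-UPF1 group overlapped a library of the other groups in any of these shares. The share of the whole family among all counts was 0.268% for input, 0.232% for IgG and 0.253% for p-UPF1.

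Per kilobase of exon, Slc25a5 was the most abundant carrier in input, at 455 ± 3.57 CPM per kb, ahead of Slc25a3 at 244 ± 1.41 and Slc25a4 at 202 ± 2.55 (SD, n = 3). The next member, the citrate carrier Slc25a1, stood at 79.4 ± 2.16 CPM per kb. In p-UPF1 libraries Slc25a51 stood at 69.2 ± 1.41 CPM per kb and Slc25a5 at 58.6 ± 4.90, a gap wider than either SD. With coding length as the divisor Slc25a51 was at 324 CPM per kb in p-UPF1 libraries, while Slc25a5 ranked 8 among the members.

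The study's criterion for a p-UPF1-bound RNA sets 2 limits, a log2 fold change of 1 against IgG and of 2 against input, and both have to be reached at an adjusted P under 0.05. It was met by 2 of the 39 tested carriers (5.13%), against 6.25% of all genes. Slc25a29 was one of them.

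Slc25a29, a carrier of basic amino acids at chr12:108825878-108835876 on the minus strand, was a rare RNA. Input libraries A, B and C held 1.87, 2.12 and 1.89 CPM, IgG libraries 1.28, 1.28 and 0.770 CPM and p-UPF1 libraries 11.2, 11.5 and 11.8 CPM. These values rest on 37 to 46 reads per library for input, on 15 to 25 for IgG and on 254 to 266 for p-UPF1. The groups did not overlap. On the log2 scale it was 3.37 ± 0.18 higher than in IgG (SE, edgeR, adjusted P = 1.57e-11) and 2.55 ± 0.16 higher than in input (adjusted P = 1.24e-10), the highest of the tested family in both. IgG over input was −0.82 ± 0.22 on the log2 scale (edgeR, adjusted P = 0.00520).

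**Figure D2:**
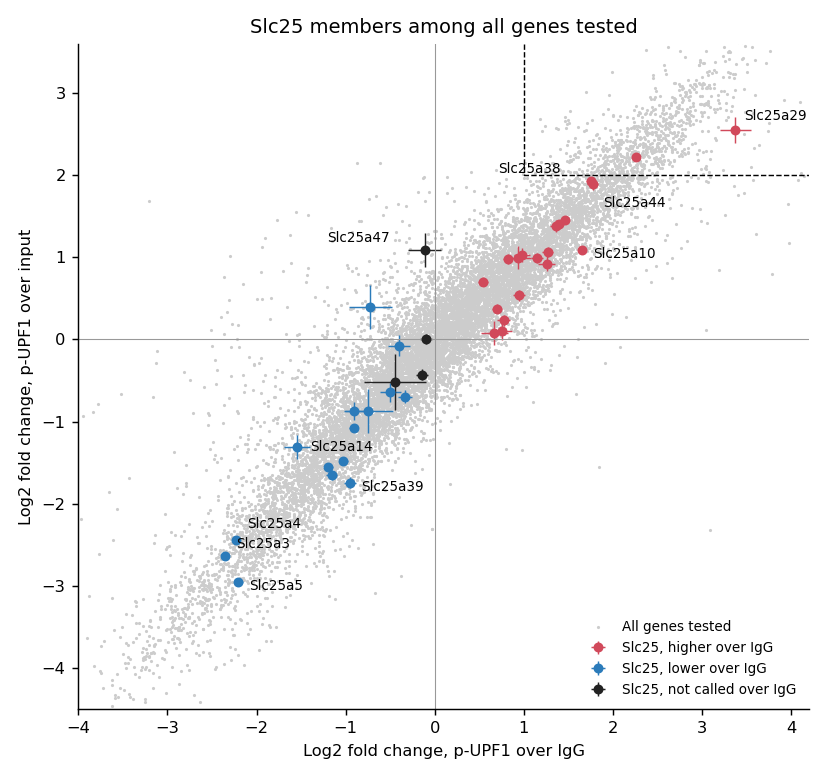
Log2 fold change of p-UPF1 over IgG (x axis) and over input (y axis) for the 39 tested Slc25 members with SE bars (red, higher over IgG; blue, lower; black, not called) on all genes tested (grey; 69 genes lie outside the axes). Dashed lines bound the area of the binding criterion, which holds 2 members, Slc25a29 among them, with Slc25a38 and Slc25a44 just under it; both axes use the same p-UPF1 libraries.

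Just below the input limit lay Slc25a38, a glycine carrier needed for haem synthesis, and Slc25a44, a carrier of branched-chain amino acids. Slc25a38 stood at 27.2, 26.2 and 25.4 CPM in input A, B and C, 29.9, 28.4 and 30.4 CPM in IgG and 97.3, 105 and 97.8 CPM in p-UPF1. Against IgG the log2 fold change was 1.76 ± 0.05 and against input 1.92 ± 0.05 (SE, edgeR, adjusted P = 1.54e-14 and 4.07e-15). Slc25a44 stood at 35.7, 37.2 and 35.9 CPM in input, 44.2, 39.0 and 35.0 CPM in IgG and 130, 134 and 138 CPM in p-UPF1. Its values were 1.77 ± 0.06 over IgG and 1.89 ± 0.06 over input (edgeR, adjusted P = 1.52e-13 and 5.39e-14). In both, every p-UPF1 library lay above every other library. With an IgG library as TMM reference their log2 fold changes over input were 2.036 and 2.001, and with no filter on low counts 2.058 and 2.023, so both met the criterion under these settings. An exon of Gm33513 on the opposite strand overlaps 62 bases of Slc25a44.

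Of the 7 carriers of cofactors and vitamins, 5 rose over IgG (all genes 40.4%), 1 fell (all genes 42.2%) and 1 was not called, with a median log2 fold change of 0.98. The counts of this and the following groups rest on few genes and were not tested against other genes. Slc25a51 stood at 109, 115 and 113 CPM in input A, B and C, 105, 110 and 121 CPM in IgG and 309, 300 and 313 CPM in p-UPF1 libraries. It rose by 1.46 ± 0.05 over IgG and 1.45 ± 0.05 over input on the log2 scale (SE, edgeR, adjusted P = 5.85e-14 and 4.77e-14), with p-UPF1 libraries above all others. Slc25a26, which imports S-adenosylmethionine, rose by 1.25 ± 0.10 over IgG, from 6.12 to 6.64 CPM in IgG to 14.7 to 15.8 CPM in p-UPF1 libraries, and shares 127 exonic bases with Lrig1 on the opposite strand. The folate carrier Slc25a32 and the coenzyme A carrier Slc25a42 rose by 0.98 ± 0.09 and 0.93 ± 0.14. Slc25a16 was not called in any of the 3 comparisons, and stood at −0.10 ± 0.07 over IgG and 0.00 ± 0.07 over input.

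The exception that fell was Slc25a17, the one carrier of this group that sits in the peroxisomal membrane, where it carries coenzyme A, FAD and NAD. It measured 95.9, 100 and 94.1 CPM in input A, B and C, 75.3, 75.2 and 74.7 CPM in IgG and 33.8, 32.7 and 31.9 CPM in p-UPF1. The p-UPF1 libraries were the lowest and the groups did not overlap. The log2 fold change was −1.19 ± 0.05 over IgG and −1.56 ± 0.05 over input (SE, edgeR, adjusted P = 6.22e-13 and 1.24e-14).

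Nucleotide and phosphate carriers were split evenly, with 4 of 8 tested members higher over IgG (all genes 40.4%) and 4 lower (all genes 42.2%). The lower ones included the most depleted carriers of the family, those that serve ATP synthesis. Slc25a3 was at 370, 373 and 369 CPM in input A, B and C, 308, 311 and 296 CPM in IgG and 62.0, 59.5 and 57.6 CPM in p-UPF1. Slc25a4 was at 271, 272 and 266 CPM in input, 230, 235 and 231 CPM in IgG and 50.9, 48.0 and 49.7 CPM in p-UPF1. Slc25a5 was at 588, 595 and 586 CPM in input, 342, 352 and 355 CPM in IgG and 69.9, 82.5 and 75.3 CPM in p-UPF1. For each of them input was highest, IgG intermediate and p-UPF1 lowest, without overlap. Log2 fold changes over IgG were −2.35 ± 0.04, −2.23 ± 0.04 and −2.20 ± 0.05 (SE, edgeR, adjusted P = 2.92e-17, 3.97e-17 and 4.96e-16), and over input −2.64 ± 0.04, −2.44 ± 0.04 and −2.96 ± 0.05. Slc25a5 was also lower in IgG than in input, at −0.75 ± 0.05.

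Slc25a33, a pyrimidine nucleotide carrier, was the fourth lower member of this group, at −0.50 ± 0.12 over IgG. Its relative Slc25a36 rose by 1.27 ± 0.06 over IgG, from 43.8 to 53.9 CPM in IgG to 119 to 123 CPM in p-UPF1 libraries. The calcium-regulated ATP-Mg/phosphate carriers Slc25a23, Slc25a24 and Slc25a25 rose by 0.67 ± 0.16, 0.77 ± 0.07 and 1.39 ± 0.06 over IgG. Slc25a25 also rose over input, by 1.40 ± 0.06, whereas Slc25a23 was at 0.08 ± 0.15 over input and was not called. Slc25a24 rose by only 0.23 ± 0.07 over input, and its IgG over input was −0.54 ± 0.07. Slc25a25 shares 404 exonic bases with Naif1 on the opposite strand, and how strand was used in counting is not stated for these libraries.

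**Figure D3:**
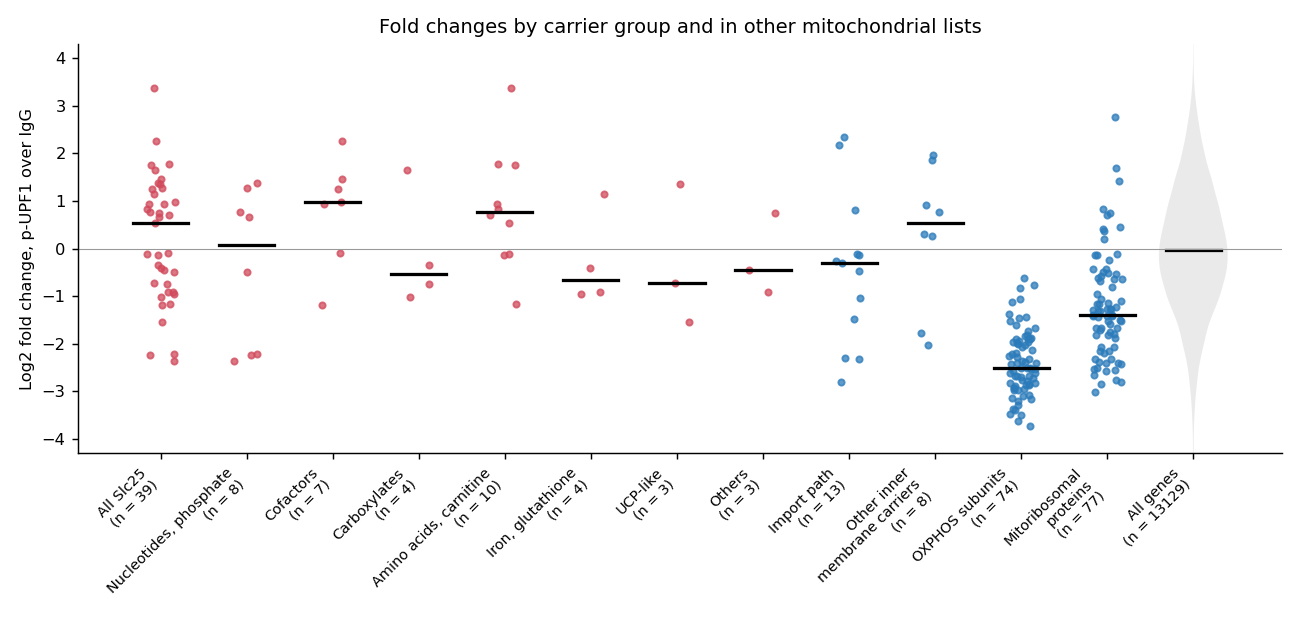
Log2 fold change of p-UPF1 over IgG for each tested Slc25 member, by carrier group (red), and for genes of other mitochondrial lists (blue); each point is 1 gene, black bars are medians and the grey shape is the distribution of all 13129 genes tested (34 genes lie outside the axis). The carriers ranged from −2.35 to 3.37, whereas all 74 oxidative phosphorylation subunits lay below 0.

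Among amino acid and carnitine carriers 7 of 10 tested members rose over IgG (all genes 40.4%), 1 fell (all genes 42.2%) and 2 were not called, with a median of 0.76. Beside Slc25a29, Slc25a38 and Slc25a44, the ornithine carrier Slc25a15 rose by 0.83 ± 0.06, the carnitine/acylcarnitine carrier Slc25a20 by 0.70 ± 0.06, the glutamate carrier Slc25a22 by 0.54 ± 0.05 and Slc25a45 by 0.94 ± 0.07. The member that fell was Slc25a12, an aspartate/glutamate carrier of the malate-aspartate shuttle. It stood at 70.3, 69.1 and 72.5 CPM in input A, B and C, 46.1, 52.2 and 51.8 CPM in IgG and 22.3, 23.0 and 22.1 CPM in p-UPF1, without overlap. The log2 fold change of Slc25a12 was −1.16 ± 0.06 over IgG and −1.65 ± 0.06 over input (SE, edgeR, adjusted P = 1.87e-11 and 9.41e-14).

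Of only 4 carboxylate carriers tested, 3 fell over IgG (all genes 42.2%), and the call of one of them depended on single libraries. Slc25a1, the citrate carrier that supplies cytosolic acetyl-CoA, fell by 1.03 ± 0.05 over IgG on the log2 scale, and Slc25a11, the oxoglutarate/malate carrier, by 0.34 ± 0.08. Slc25a35 measured −0.75 ± 0.28 at 0.858 to 1.31 CPM in p-UPF1 libraries, and its adjusted P of 0.0202 became 0.0867 without p-UPF1 library B, 0.0728 without p-UPF1 library A and 0.0581 without IgG library B. It shares 32 exonic bases with Rangrf on the opposite strand. The dicarboxylate carrier Slc25a10 was the one that rose. It was at 61.0, 62.9 and 65.5 CPM in input A, B and C, 43.8, 41.8 and 42.6 CPM in IgG and 135, 136 and 131 CPM in p-UPF1 libraries, again without overlap. Slc25a10 rose by 1.65 ± 0.05 over IgG on the log2 scale and 1.09 ± 0.04 over input (SE, edgeR, adjusted P = 5.72e-15 and 6.22e-13), and IgG over input was −0.56 ± 0.05.

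Of the iron and glutathione carriers, mitoferrin 1 (Slc25a37), which brings iron to the matrix, rose by 1.15 ± 0.06 over IgG, while mitoferrin 2 (Slc25a28) fell by 0.90 ± 0.11. The glutathione carriers Slc25a39 and Slc25a40 fell by 0.95 ± 0.07 and 0.40 ± 0.12. Over input Slc25a40 was at −0.08 ± 0.12 and was not called, and its IgG over input was 0.32 ± 0.12. Of the carriers named for likeness to uncoupling proteins, Slc25a30 rose by 1.36 ± 0.07, Slc25a14 fell by 1.55 ± 0.15 and Slc25a27 measured −0.72 ± 0.25. Slc25a46, an outer membrane member with a part in mitochondrial dynamics, fell by 0.91 ± 0.05. Slc25a53 rose by 0.76 ± 0.11 over IgG but stood at 0.10 ± 0.10 over input and was not called there, with mean CPM of 18.6 for input, 11.8 for IgG and 19.9 for p-UPF1. Slc25a43, at 1.59 CPM or less in every library, was not called.

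IgG precipitates were not a plain copy of the lysate for this family. In IgG against input 6 of 39 members were higher (all genes 18.2%) and 19 lower (all genes 34.7%), with a median of −0.16 for members and −0.10 for all genes. The count of 6 fell to between 2 and 5 when any 1 library was left out, and was 2 without input library B or C. Other scalings raised it to as many as 9, and the lower count of 19 ranged from 15 to 20 over all alternatives. The calls past 1 on the log2 scale were Slc25a27 and Slc25a47, both rare. Slc25a27 was at 2.15, 2.07 and 1.58 CPM in input A, B and C, 5.21, 2.50 and 4.98 CPM in IgG and 2.74, 2.44 and 2.49 CPM in p-UPF1. IgG library B lay within the p-UPF1 range, and the other IgG libraries were above every other library. The log2 fold change of IgG over input was 1.12 ± 0.26 (SE, edgeR, adjusted P = 0.00169), and p-UPF1 against IgG had an adjusted P of 0.0131, which became 0.0540 without IgG library C. Slc25a47, a carrier described mainly in liver, was at 2.55, 2.12 and 2.90 CPM in input, 7.12, 4.24 and 6.16 CPM in IgG and 4.72, 6.14 and 5.35 CPM in p-UPF1. Both precipitates lay above input in every library and overlapped each other, with log2 fold changes of 1.20 ± 0.21 for IgG and 1.09 ± 0.21 for p-UPF1 over input (SE, edgeR, adjusted P = 0.000138 and 0.000120).

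Closely related carriers were compared with each other. Of 10 pairs with both genes tested, 4 had log2 fold changes of opposite sign over IgG, while 51.3% of all possible pairs of tested members did. The difference between the genes of a pair was compared over libraries by a two-sided exact permutation test on log2 CPM, whose smallest possible P with 3 libraries against 3 is 0.1. This smallest value was reached by 8 of the 10 pairs for p-UPF1 against IgG and by 9 against input, close to the 86.0% and 91.9% of all 741 possible pairs of tested members, and with this test no pair could reach an adjusted P under 0.05. The pairs made from Slc25a23, Slc25a24 and Slc25a25 share genes with one another.

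The widest gap was between Slc25a14 and Slc25a30, whose coding sequences are 71.9% identical. Their difference in log2 CPM was −1.13 ± 0.20 in IgG but −4.01 ± 0.19 in p-UPF1 libraries (SD, n = 3, exact P = 0.1). Mitoferrin 2 minus mitoferrin 1 was −0.68 ± 0.10 in IgG and −2.72 ± 0.15 in p-UPF1 libraries, at 70.6% identity, and Slc25a33 minus Slc25a36 was −1.70 ± 0.15 and −3.47 ± 0.17, at 65.4% identity. Slc25a10 minus Slc25a11 went from −0.46 ± 0.17 in IgG to 1.52 ± 0.04 in p-UPF1. The aspartate/glutamate carriers Slc25a12 and Slc25a13 differed by 0.48 ± 0.08 in IgG and −0.53 ± 0.06 in p-UPF1, and Slc25a13 itself was not called over IgG (−0.14 ± 0.07, adjusted P = 0.0674).

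The ADP/ATP carriers had the smallest gap over IgG. Slc25a4 minus Slc25a5 was −0.59 ± 0.03 in IgG, against −0.61 ± 0.16 in p-UPF1 libraries (SD, n = 3, exact P = 0.8), at 77.5% coding identity, the highest of the pairs listed. Against input the same difference was −1.13 ± 0.01, so the pair stood 0.52 apart there (exact P = 0.1). The difference of Slc25a23 and Slc25a24 was −1.76 ± 0.50 in IgG and −1.83 ± 0.10 in p-UPF1 (exact P = 0.8), and the wide spread of the IgG libraries limits what can be seen there. How reads matching several genes were counted is not given in the sources used here, so counts of the most alike members, and of genes with processed copies, are less certain.

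**Figure D4:**
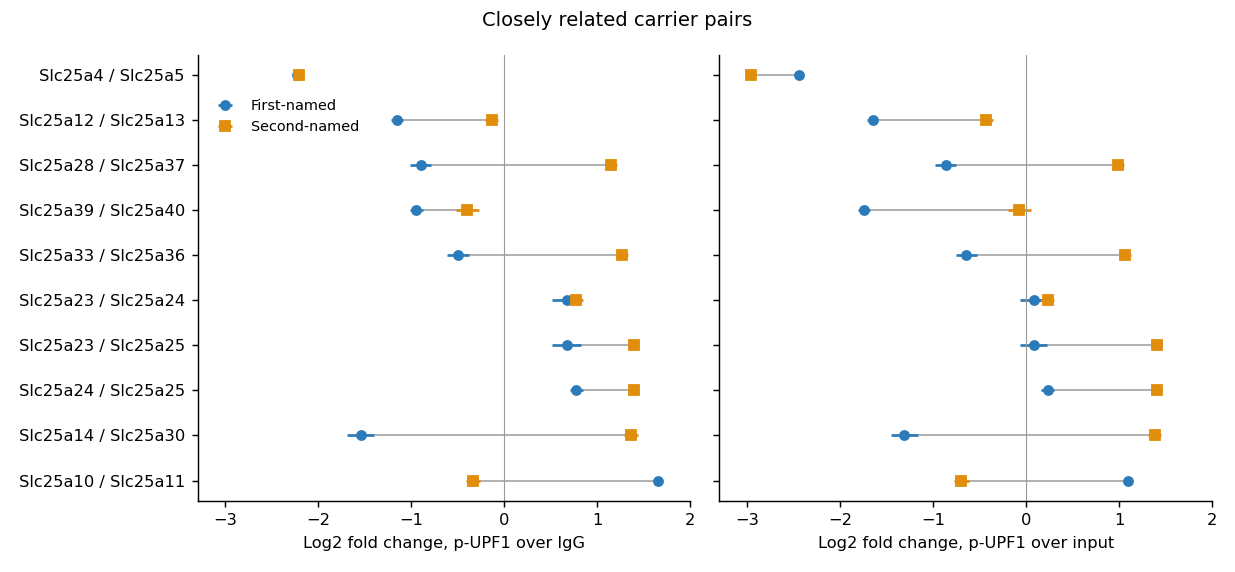
Log2 fold change of p-UPF1 over IgG (left) and over input (right) for the 10 related pairs with both genes tested; circles are the first-named and squares the second-named gene, with SE bars. Slc25a4 and Slc25a5 coincide over IgG, at −2.23 and −2.20, whereas Slc25a14 and Slc25a30 stand at −1.55 and 1.36.

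Members also differed in the length of the annotated 3′ UTR. In GENCODE M21, the median was 1710 bases in the 20 members higher over IgG and 590 bases in the 15 lower ones, against 1370 bases in all higher and 609 bases in all lower protein-coding genes, so the carriers differed in the direction that genes in general did. Lengths ran from 740 bases (Slc25a38) to 4739 bases (Slc25a32) in higher and from 172 bases (Slc25a3) to 4092 bases (Slc25a12) in lower members, so the ranges overlapped. Slc25a3 had 172 bases, Slc25a5 263 bases and Slc25a14 370 bases, against 2207 bases in Slc25a44 and 3318 in Slc25a51. The contrast did not hold for every member. Slc25a29, with the highest fold change, had 857 bases, and the depleted Slc25a4 had 666 bases, against a median of 975 bases in all protein-coding genes tested. Of the lower members, Slc25a12, Slc25a27, Slc25a40 and Slc25a46 had the longest 3′ UTRs, at 1499 to 4092 bases. Across the 38 tested members with a 3′ UTR in this annotation, Spearman's rho with the log2 fold change over IgG was 0.51 and Pearson's r with log2 length 0.51, against 0.32 and 0.32 across all protein-coding genes. These are descriptions across genes that share libraries, and genes are not independent replicates. The input level per kb varied with the fold change as well, with a rho of −0.29 in members and −0.31 in all genes and a Pearson's r on the log2 scale of −0.45 and −0.34. Over input, r was −0.57 for input level and 0.53 for 3′ UTR length in members, although the input level is also the divisor of that fold change. The part of the input level in the relation with length was not tested.

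**Figure D5:**
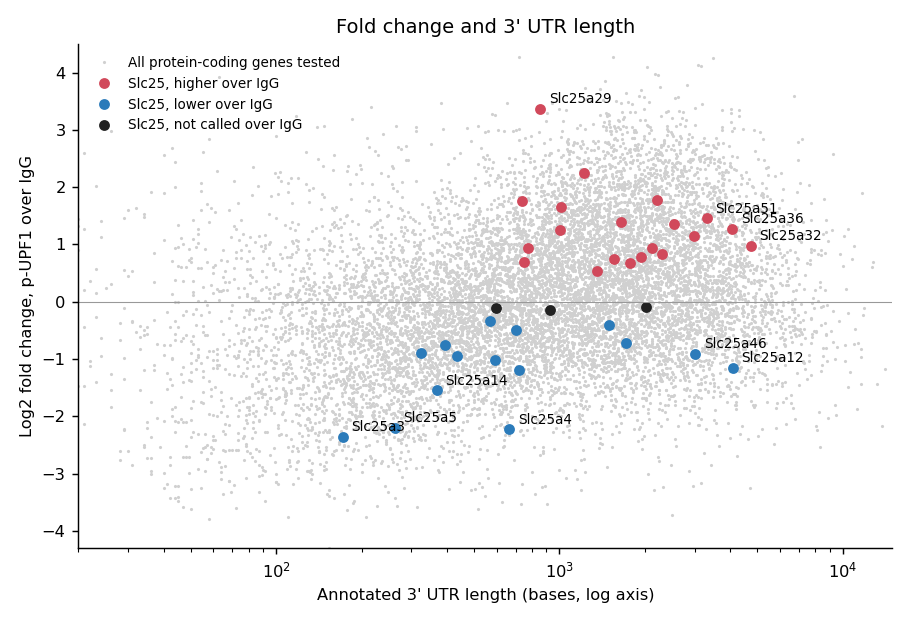
Log2 fold change of p-UPF1 over IgG against 3′ UTR length in GENCODE M21 (log axis) for 38 tested Slc25 members (red, higher; blue, lower; black, not called) and all protein-coding genes tested (grey; 59 genes lie outside the axes). Higher members lie between 740 and 4739 bases and lower members between 172 and 4092 bases.

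The lengths depended on the annotation for single members, and 8 of 38 differed by more than 1.5 times between GENCODE and RefSeq. RefSeq gives 390 bases in place of 172 for Slc25a3, 295 in place of 666 for Slc25a4, 2986 in place of 1012 for Slc25a10 and 885 in place of 4092 for Slc25a12. It gives 5866 in place of 1714 for Slc25a27, 650 in place of 2532 for Slc25a30, 1779 in place of 4739 for Slc25a32 and 2035 in place of 4085 for Slc25a36. With RefSeq lengths, an alternative chosen after the data were seen, the medians were 1702 bases in higher and 602 bases in lower members, rho was 0.55 in members and 0.36 in all protein-coding genes, and the shortest higher member was Slc25a30. Within the 20 higher members rho was 0.01, and within the 15 lower ones it was 0.60, so length did not follow the fold change among higher members. Which 3′ ends the B cells used was not measured.

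Other features of the transcripts separated the members less clearly. The median coding length was 954 bases in higher and 969 bases in lower members, well under the 1398 bases of all protein-coding genes tested. Its rho with the fold change over IgG was −0.17 in members and 0.13 in all protein-coding genes. None of the 38 members had an exon junction more than 50 bases past the stop codon of its coding transcript, a position that favours NMD, and 45 of the 11710 protein-coding genes had one. Transcripts annotated as NMD targets form a separate class and could not be chosen as coding transcripts. These low counts therefore follow largely from the choice of transcript. At least 1 transcript annotated as an NMD target was listed for 8 of 20 higher and 8 of 15 lower members, and for 33.4% of all higher and 26.0% of all lower genes. The stop codon was TGA in 14 of 20 higher and 6 of 15 lower members (54.7% of all higher and 48.9% of all lower genes), and TAA in 2 and 7 (21.6% and 29.1% of all higher and lower genes). An ATG in the 5′ UTR was found in 13 of 20 higher and 6 of 15 lower members, and in 54.4% of all higher and 44.3% of all lower genes. GC content of the 3′ UTR had medians of 48.3% and 46.2%, against 47.2% and 41.7% in all higher and lower genes. Its rho with the fold change over IgG was 0.33 in members and 0.31 in all genes, and Pearson's r was 0.40 and 0.30. For GC content of the coding sequence rho was 0.28 in members and 0.17 in all genes.

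Other nuclear genes for mitochondrial proteins are given for comparison, since the carriers had an SD of log2 fold changes over IgG of 1.32 around a median of 0.54. All 74 tested subunits of oxidative phosphorylation were lower in p-UPF1 than in IgG libraries (all genes 42.2%), with a median of −2.51, an SD of 0.69 and a range of −3.73 to −0.62. Of 77 mitochondrial ribosomal protein genes, 65 were lower (all genes 42.2%) and 10 higher (all genes 40.4%), with a median of −1.39 and an SD of 1.13. All lower carriers except Slc25a11, Slc25a33 and Slc25a40 lay within the range of the oxidative phosphorylation subunits, Slc25a3, Slc25a4 and Slc25a5 among them. The 20 higher carriers lay above all of these subunits, which follows from the signs alone. Among relatives outside the Slc25 symbols, the uncoupling protein Ucp2 rose by 0.90 ± 0.04 over IgG, while the carrier-like outer membrane proteins Mtch1 and Mtch2 measured −0.88 ± 0.05 and −0.77 ± 0.05. Over input Ucp2 rose by only 0.13 ± 0.04, with mean CPM of 813 for input, 478 for IgG and 891 for p-UPF1.

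Among inner membrane carriers of other families, 6 of 8 were higher over IgG (all genes 40.4%) and 2 lower (all genes 42.2%), while over input 4 were higher (all genes 40.8%), 2 lower (all genes 42.6%) and 2 not called. Sfxn5, a sideroflexin, met the binding criterion at 1.86 ± 0.11 over IgG and 2.11 over input, and Sfxn2 rose by 1.98 ± 0.12. The pyruvate carrier subunits Mpc1 and Mpc2 fell, at −1.78 ± 0.15 and −2.03 ± 0.11. Of 13 genes of the route by which carriers are imported, 3 were higher over IgG (all genes 40.4%) and 9 lower (all genes 42.2%). Over input, 3 were higher and 10 lower (all genes 40.8% and 42.6%). The higher ones belong to the TIM22 complex, which inserts carriers into the inner membrane, but other proteins of this complex were lower. They were Timm29 at 2.34 ± 0.04 over IgG and 2.58 over input, which met the criterion, its channel Timm22 at 2.18 ± 0.07, and Agk at 0.81 ± 0.14. Of the small chaperones of the route, Timm10b of the TIM22 complex was at −2.32, Timm10 at −0.26 and Timm8b at −2.80, all called lower, while Timm9 was not called. The receptors Tomm20 and Tomm70a were lower too, at −2.31 and −1.47.

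The 8 members that were not tested were nearly silent in these cells. Slc25a21, the oxoadipate carrier, had 0 reads in all 9 libraries, and a count of 0 allows up to 3 reads in a library, or 0.122 to 0.159 CPM. Slc25a34 had 1 to 13 reads, Slc25a18, a glutamate carrier, had 3 to 10 reads, and Slc25a2, an ornithine carrier, had 0 to 5. Slc25a48 had 0 to 3 reads, Slc25a31, an ADP/ATP carrier known from the testis, and Slc25a41 had 0 to 2 each, and Slc25a54 had 0 to 1. These genes did not pass the filter on low counts and were not tested between the groups.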

How the data were processed

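RIP-seq libraries were made by the authors from activated splenic B cells, and the deposited table holds unscaled counts of reads for each gene. Per the labels, cutadapt, HISAT2 and featureCounts were used with mm10, without versions. The study's RNA-seq methods describe single-end, unstranded mapping, and no strand setting is stated for RIP-seq. Columns carry letters and the labels numbers, so columns were assigned to groups only and not paired in the main model.

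Genes passing edgeR's filterByExpr (minimum count 10, minimum total 15) were scaled by TMM. A negative binomial model of the 3 groups (edgeR 4.0.16, R 4.3.3, 6 residual degrees of freedom) was tested by quasi-likelihood F tests with Benjamini-Hochberg adjustment over 13129 genes. A prior count of 0.125 entered the log2 fold changes, and SE values were derived from the test statistic. The common biological coefficient of variation was 4.94%. The fit was tested on simulated data. DESeq2 1.42.0 and limma 3.58.1 (voom) served as alternatives. Pairs were compared by exact permutation tests (scipy 1.17.1) on log2 CPM (prior count 2), and coding sequences were aligned with Biopython 1.88.

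Symbols, positions and overlaps came from RefSeq GRCm38.p6. UTR and coding lengths and sequences came from the GENCODE M21 coding transcript with the longest coding sequence. Slc25a43 had no 3′ UTR there and was left out of feature summaries. Identifiers without a symbol, 1904 in number, held 0.379% of counts.

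The members, groups and lists were chosen with earlier results of these data known. Values per library are given for members meeting the binding criterion, for the 5 highest and 5 lowest over IgG at a mean of at least 10 CPM, and for members past 1 on the log2 scale in IgG against input. Related pairs, groups by substrate and untested members are summarised. A single carrier that meets this rule is not reported here by name, and counts and medians include it.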

Additional observations from a re-analysis of the deposited data

How the results depend on the processing

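Across 22 alternatives (scaling, filter, tool, prior count, threshold, groups in the fit, a block by column letter and leaving out each library), 20 members were higher over IgG in every one, 13 to 17 were lower over IgG, 19 to 21 were higher over input and 13 to 15 lower over input. The number meeting the binding criterion was 2, except 4 with an IgG library as TMM reference and 4 with no filter on low counts, where Slc25a38 and Slc25a44 joined. It stayed at 2 when any library was left out. The count of members higher in IgG than in input was the least stable: it was 6, rose to 8 with upper-quartile factors and 9 with library size alone, an input or IgG reference or only the groups compared, fell to 2 at an adjusted P under 0.01, and ranged from 2 to 5 when 1 library was left out (3 without IgG library A, 2 without input library B or C, 3 without input library A).

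Signs changed for values close to 0 that were not called. Slc25a16 over input (0.0040) was −0.063 with upper-quartile factors, −0.043 on library size alone and −0.021 to 0.044 with 1 library left out. Slc25a40 over input (−0.076) was 0.034 with an IgG reference and 0.056 with no low-count filter. Slc25a47 over IgG (−0.11) ranged from −0.28 to 0.053 with 1 library left out. The remaining ones are IgG over input. Slc25a43 (−0.073) was 0.043 on library size alone, 0.0336 when TMM took an input reference, 0.0344 when it took an IgG one, 0.015 with no low-count filter, 0.0344 with only the groups compared and −0.29 to 0.25 with 1 library left out. Slc25a51 (−0.0037) was 0.026 both with DESeq2 and with its size factors, 0.066 with upper-quartile factors, 0.11 on library size alone, 0.10 with an input or an IgG reference and with only the groups compared, 0.084 with no low-count filter, 0.0062 at 1 CPM in 3 libraries and −0.074 to 0.032 with 1 library left out. With 1 library left out, Slc25a25 (0.012) ranged from −0.061 to 0.036, Slc25a28 (0.033) from −0.12 to 0.11, Slc25a30 (0.022) from −0.053 to 0.062, Slc25a32 (0.050) from −0.032 to 0.17, Slc25a35 (−0.13) from −0.24 to 0.015 and Slc25a42 (0.064) from −0.11 to 0.24. The cause was not tested.

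Upper-quartile factors and library size alone shifted the median of all genes over IgG by −0.14 and −0.16, and an IgG reference shifted it over input by 0.11. In IgG over input, library size alone moved it by 0.12 and an input or IgG reference by 0.11. Rare members such as Slc25a35, Slc25a43 and Slc25a29 are limited by depth. The columns of each group carry the same letters, which no label says pair the libraries. The methods describe input as a portion of the lysate and the precipitates as made from the remainder. They do not say which libraries came from the same lysate. Deviations of same-letter libraries from their group means had correlations of −0.0051 to 0.054 over 9 pairs, and those of different letters −0.056 to 0.022 over 18 pairs. A replicate block by letter, added after the data were seen, gave 20 members higher and 15 lower over IgG, 19 higher and 14 lower over input and 2 meeting the criterion, and changed no call of any member listed here.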
